A study of Mus musculus with 6 samples.

Results

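The comparison described here is the net change of transcripts in ERK1/2 knockout granulosa cells 4 h after human chorionic gonadotropin (hCG). It sets 1 array of knockout cells at 4 h against 1 array of knockout cells without hCG, which makes 2 of the 6 arrays of the series. The knockout mice are labelled ERK1 knockout and ERK2 fl/fl;Cyp19CRE, so ERK1 is missing from the whole animal and ERK2 is deleted only where Cre driven by the Cyp19 (aromatase) promoter is active. The mice were 23 days old. Each had been given equine chorionic gonadotropin (eCG, 5 IU) 48 h earlier, which drives follicles to the preovulatory stage. The hCG dose was 5 IU. Knockout cells at 2.5 h and wild type cells at 0 h, 2.5 h and 4 h, treated alike, supply the values set beside the comparison. The labels name no replicates and do not say how many animals gave each sample, so no difference has an error or a p-value.

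Granulosa cells line the ovarian follicle, and hCG stands in for the surge of luteinizing hormone that starts ovulation. Its receptor raises cyclic AMP, which activates protein kinase A. In the same cells, EGF-like ligands then activate the EGF receptor and the RAS, RAF, MEK and ERK cascade. Progesterone is made from cholesterol, which is taken up through the scavenger receptor SR-BI or built from acetyl-CoA, carried into mitochondria by STAR and cut by CYP11A1. CYP11A1 and CYP17A1 are heme proteins, and ferredoxin passes electrons to CYP11A1. Luteinizing cells therefore need sterol, heme and electron transfer together.

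Values are probe set intensities on a linear scale, and a difference is log2 of the 4 h intensity minus log2 of the 0 h intensity. Each gene is represented by its brightest probe set. A gene was tested where the brighter of both knockout arrays reached an intensity of 64, just above the array medians of 54 to 55, and was called where the arrays differed at least 2-fold. The series names 18194 genes, and 11376 of them were tested. Of those, 443 (3.89%) were higher at 4 h by 2-fold or more and 552 (4.85%) lower. In wild type 11554 genes were tested, with 632 (5.47%) on the higher side and 1045 (9.04%) on the lower side. The median difference over the tested genes was 0.02 in knockout and -0.21 in wild type for the same genes. Among list members, those nearest the threshold were Acly (2.00-fold higher) and Csf1r (2.03-fold) just inside and Fzd1 (1.96-fold) and Flvcr1 (1.95-fold) just outside, and on the lower side Myc (2.02-fold lower) inside and Cyp1b1 (1.96-fold) outside. All 9 granulosa markers with a probe set were bright, from 3890 (Foxl2, a granulosa transcription factor) to 28064 (Inha, the inhibin alpha subunit) in knockout cells at 0 h. The transcripts of the deleted kinases were not analysed here, and the genotype is taken from the labels alone. For Gapdh, the 3' probe set over the 5' one, a sign of RNA integrity, gave 5.21 on the knockout array at 0 h and 4.24 at 4 h; the part of this in the results was not tested.

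Promoter sequence is shown first for the sterol genes, because all of them were higher at 4 h and they share a motif. Of 19 sterol synthesis genes with a probe set, 16 had an entry in the RefSeq promoter table of GRCm38.p6 (250 bases before to 50 after each gene's start), and 16 of those 16 held the NF-Y box CCAAT on either strand, against 41.1% of all 27025 genes in the table. The sterol regulatory element, searched as TCACNCCAC on both strands, was in 1 of the 16 (Hmgcs1) and in 1.44% of all genes. A gene with several starts counted when any of them held the motif. The 100 bases before the start are printed for the 6 sterol genes with a promoter entry that were at least 2-fold higher, with CCAAT or its reverse ATTGG in capitals.
Mvk (chr5:114444169-114444268, plus strand): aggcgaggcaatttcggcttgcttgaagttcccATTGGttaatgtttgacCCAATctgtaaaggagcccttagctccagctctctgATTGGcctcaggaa
Mvd (chr8:122443423-122443522, minus strand): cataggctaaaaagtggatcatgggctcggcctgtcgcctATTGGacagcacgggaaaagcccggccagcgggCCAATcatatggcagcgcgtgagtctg
Idi1 (chr13:8885506-8885605, plus strand): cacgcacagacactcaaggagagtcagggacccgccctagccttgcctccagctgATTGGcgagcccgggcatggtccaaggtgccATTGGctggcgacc
Cyp51 (chr5:4104698-4104797, minus strand): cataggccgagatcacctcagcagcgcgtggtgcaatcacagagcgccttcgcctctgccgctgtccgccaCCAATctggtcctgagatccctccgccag
Sc5d (chr9:42264301-42264400, minus strand): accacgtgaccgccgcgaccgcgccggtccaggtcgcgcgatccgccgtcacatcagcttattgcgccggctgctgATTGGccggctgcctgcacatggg
Dhcr7 (chr7:143830114-143830213, plus strand): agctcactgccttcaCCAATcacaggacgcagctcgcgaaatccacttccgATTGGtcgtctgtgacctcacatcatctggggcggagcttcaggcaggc
The windows held between 1 (Cyp51, Sc5d) and 3 (Mvk) copies. The 10 sterol genes with an entry that were not 2-fold higher held the box as well, 10 of 10, so within this list it did not separate them.

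The genes that turn acetyl-CoA into cholesterol stood above their 0 h level throughout. All of 19 lay above 0 h, with 8 (42.1%) past the 2-fold mark, and the list's median difference was 0.69 on the log2 scale. Dhcr7, which makes cholesterol in the last step of the pathway, was at 465, 2091 and 2833 on the knockout arrays at 0 h, 2.5 h and 4 h (6.09-fold at 4 h) and at 892, 2320 and 2375 in wild type (2.66-fold). Both genotypes thus went up, the knockout from a lower start to a higher end. Cyp51, the lanosterol demethylase, went from 246 to 800 and 965 in knockout (3.92-fold) and from 517 to 1994 and 2655 in wild type (5.13-fold). Mvd, the mevalonate diphosphate decarboxylase, was at 85, 134 and 311 in knockout (3.66-fold) and at 188, 196 and 167 in wild type. Most of its difference in knockout came after 2.5 h, and wild type ended 1.13-fold below its start.

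The other called sterol genes were Idi1, the isopentenyl diphosphate isomerase (2.98-fold), Sqle, the squalene epoxidase (2.73-fold), Sc5d, a sterol desaturase (2.38-fold), Mvk, the mevalonate kinase (2.31-fold), and Fdps, the farnesyl diphosphate synthase (2.21-fold). Mvk was at 210, 460 and 486 in knockout and at 344, 309 and 259 in wild type. The wild type median over the 19 genes was 0.39, with 10 above and 9 below 0 h. The knockout difference exceeded that of wild type in 15 of 19, but a larger knockout difference was also seen in 68.3% of all tested genes. Every one of the 8 called genes began lower in knockout than in wild type at 0 h, and with the wild type 0 h array as the baseline only 1 of 19 was at least 2-fold higher in knockout at 4 h (median 0.40). Fdps was below that baseline (-0.10 on the log2 scale).

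**Figure D1:**
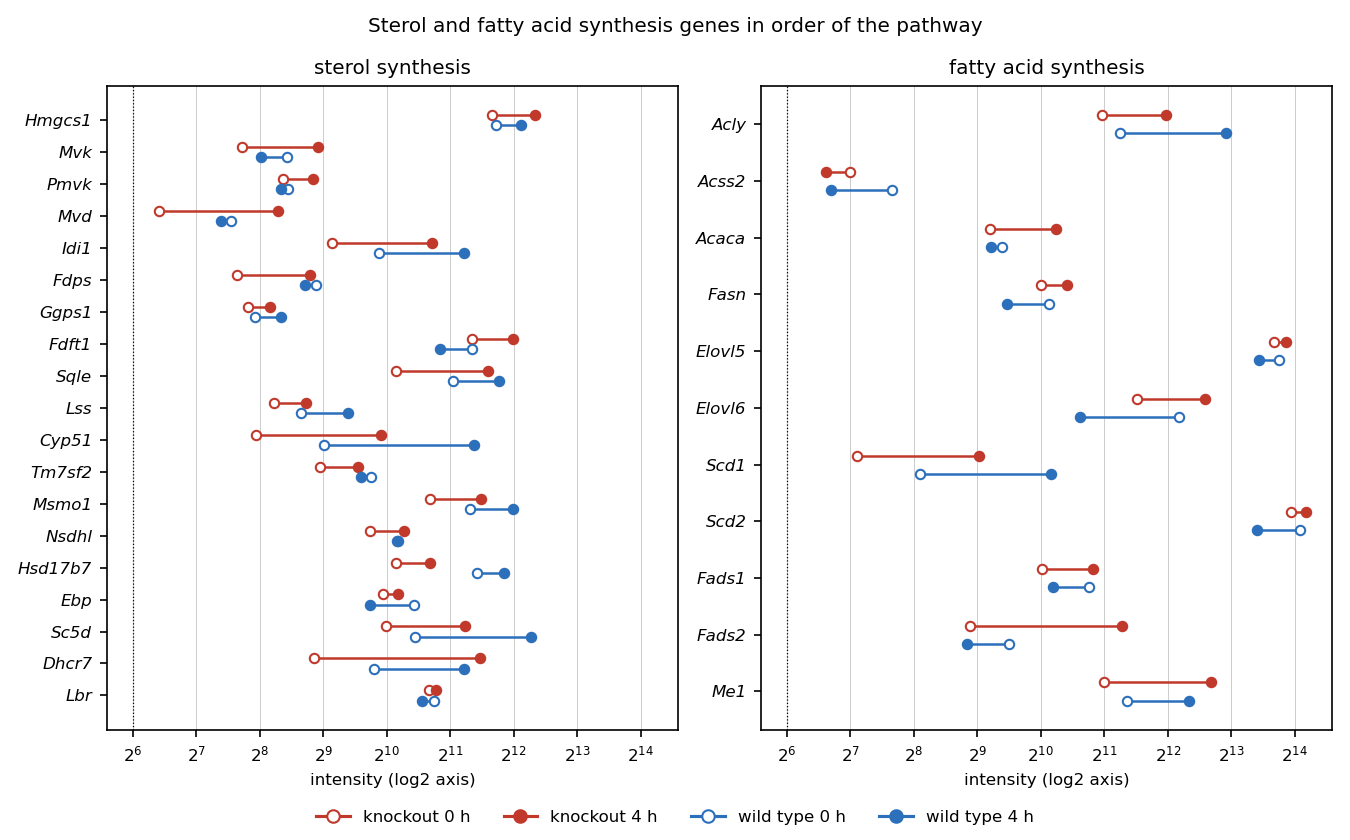
Intensity (log2 axis) of 19 sterol synthesis and 11 fatty acid synthesis genes, in order of the pathway, on the 0 h arrays (open) and 4 h arrays (filled) of knockout (red) and wild type (blue), 1 array per point; the dotted line marks the intensity of 64. All 19 sterol genes lie further right at 4 h in knockout, while several wild type pairs, such as those of Elovl6 and Fads2, run the other way.

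Lipogenic genes were higher as well. Of 11 genes of fatty acid synthesis and desaturation, 6 (54.5%) were at least 2-fold higher in knockout at 4 h and 0 lower, with a median difference of 1.0. In wild type the median of the same genes was -0.58, with 2 higher and 1 lower. Fads2, the delta-6 desaturase, went from 472 to 1519 and 2473 in knockout (5.24-fold) and from 722 to 699 and 458 in wild type (1.58-fold lower). Its 3 probe sets gave differences of 2.28 to 2.56 in knockout. Elovl6, an elongase of saturated fatty acids, was at 2935, 4921 and 6178 in knockout (2.10-fold) and at 4607, 3480 and 1570 in wild type (2.93-fold lower). Scd1, the stearoyl-CoA desaturase, was 3.81-fold higher in knockout and 4.14-fold in wild type. Me1, the malic enzyme that supplies NADPH, was 3.20-fold higher and Acaca, the acetyl-CoA carboxylase, 2.06-fold. Fasn was at 1029 and 1360 at 0 h and 4 h in knockout, which is under 2-fold. With cyclic loess normalization 3 of 11 were at least 2-fold higher, and with the wild type 0 h baseline 2 were.

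Genes of cholesterol uptake and export were mixed. Of 14 over the floor, 2 (14.3%) were at least 2-fold higher and 0 lower (median 0.11). Scarb1, which encodes SR-BI, was at 4480, 10994 and 16753 in knockout (3.74-fold) and at 8106, 16192 and 22407 in wild type (2.76-fold), and its 3 probe sets gave 1.57 to 2.06 on the log2 scale in knockout. Abca1, the cholesterol exporter, was at 2006 and 2406 at 0 h and 2.5 h and then at 8611 at 4 h in knockout (4.29-fold). In wild type it climbed from 2701 through 4155 to 6846. Srebf2, the transcription factor of the sterol genes, was at 220, 380 and 410 in knockout (1.86-fold) and at 295, 326 and 312 in wild type by its brightest probe set. Its other probe set gave 1.55 on the log2 scale in knockout, which is past 2-fold. In wild type that probe set was at 195, 289 and 466, so the size of the Srebf2 difference depended on the probe set in both genotypes.

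Among steroid pathway genes, 5 of 22 (22.7%) were at least 2-fold higher in knockout at 4 h and 1 was lower, with a median difference of 0.47, while the wild type median over the same genes was -0.40. Star, the mitochondrial cholesterol carrier, was at 69, 635 and 619 in knockout (8.97-fold) and at 304, 14678 and 16259 in wild type (53.5-fold). Its 3 probe sets gave 3.05 to 3.95 on the log2 scale in knockout. The knockout level after hCG was therefore above its own start and far below the wild type level, with almost no step between 2.5 h and 4 h. Cyp11a1, the side-chain cleavage enzyme, behaved differently. It stood at 2598, 9524 and 12909 in knockout (4.97-fold) and at 6878, 11901 and 13351 in wild type (1.94-fold), so that the 4 h levels of the genotypes were close. Fdx1, the ferredoxin that feeds it electrons, went from 5891 to 30615 and 30047 in knockout (5.10-fold) and from 9151 to 22681 and 25464 in wild type (2.78-fold).

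Cyp17a1, the enzyme that turns progestins into androgens, was at 1845, 14251 and 13997 in knockout (7.59-fold) and at 1994, 2037 and 1399 in wild type. The genotypes began at like levels and were far apart after hCG. In the follicle this enzyme marks theca cells, which surround the granulosa layer. Of 9 theca markers with a probe set, 8 were over the floor, 2 of these were at least 2-fold higher (Cyp17a1 and Cyp11a1) and 1 lower (Ptch1, the hedgehog receptor, at 3308 and 1540). The remaining 5 were under 2-fold apart, from Tcf21 at 143 and 129 to Hhip at 74 and 117. The summed intensity of all 9, Cyp17a1 and Cyp11a1 included, was 9875 at 0 h and 30781 at 4 h in knockout and 14924 and 18746 in wild type. In knockout Cyp17a1 and Cyp11a1 gave 1845 and 2598 of this sum at 0 h and 13997 and 12909 at 4 h. The sum at 4 h was thus mostly theirs and says little of the other markers. The part of theca cells in the Cyp17a1 result was not tested. In such a bulk sample, more cells of a type and more RNA per cell cannot be told apart.

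Hsd3b1, which makes progesterone, was at 22135, 28869 and 29771 in knockout and at 23119, 18483 and 15864 in wild type, both under 2-fold. Hsd17b1, the estradiol-forming enzyme, was at 12681, 18764 and 17381 in knockout and at 13111, 9121 and 3530 in wild type. Nr5a2, the nuclear receptor LRH-1, was at 11386, 16061 and 16328 in knockout and at 10104, 8126 and 5450 in wild type. For these 3 genes the knockout arrays after hCG were above 0 h and the wild type arrays below it. Nr0b1 (DAX-1), a repressor of steroidogenic transcription, was the called gene on the lower side, at 521, 148 and 129 in knockout and 485, 245 and 120 in wild type, which is 4.04-fold lower at 4 h in each genotype. Sult1e1, the estrogen sulfotransferase, was at 20, 23 and 78 in knockout. It passed the rule only through an intensity just over 64, and in wild type it stood at 20, 10513 and 18464. With the wild type 0 h baseline the steroid list had 5 higher and 2 lower, and its median was 0.14.

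**Figure D2:**
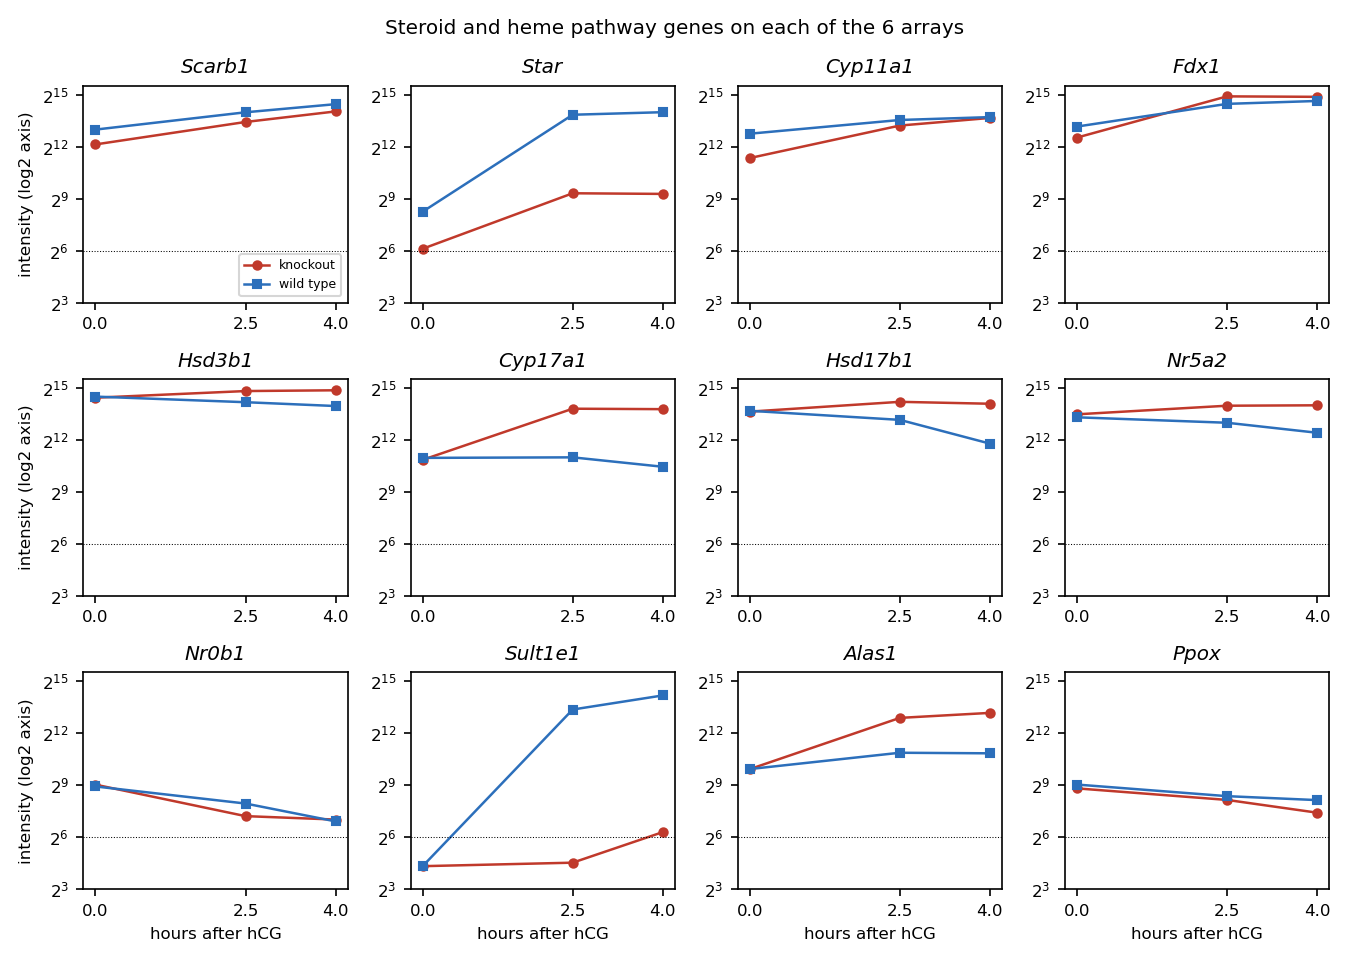
Intensity (log2 axis) of 12 steroid, cholesterol uptake and heme genes at 0 h, 2.5 h and 4 h after hCG in knockout (red circles) and wild type (blue squares), 1 array per point; the dotted line marks the intensity of 64. Cyp17a1 and Alas1 start level and part after hCG with knockout on top, while Star and Sult1e1 part with wild type on top.

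Heme synthesis did not move as a group. Of 7 genes, 1 was at least 2-fold higher and 1 lower, and the median difference was -0.45 in knockout and -0.63 in wild type. The sign of the knockout median depended on the probe set: it was 0.17 over the 5 genes with a second one over the floor. No gene was called lower there or when all probe sets were averaged. The higher gene was Alas1, the 5-aminolevulinate synthase that sets the rate of the pathway. It was at 970, 7527 and 9192 in knockout (9.48-fold) and at 973, 1867 and 1825 in wild type (1.88-fold). The 0 h levels of the genotypes were the same to within 3 units, and a second probe set gave 282 and 2362 in knockout at 0 h and 4 h. The lower gene was Ppox, the protoporphyrinogen oxidase, at 449, 283 and 170 in knockout (2.64-fold lower) and 523, 329 and 281 in wild type. Its other 2 probe sets were below 64. Urod and Uros, enzymes of earlier steps, and Fech, which inserts the iron, were below their 0 h level in knockout by under 2-fold (-0.45, -0.48 and -0.64). None of 16 genes of heme breakdown, heme transport and iron handling was at least 2-fold different, though 13 were above 0 h (median 0.27). The nearest was Flvcr1, a heme exporter, at 589, 1070 and 1151.

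Red blood cells also hold heme enzymes. Of 7 of their markers with a probe set, 5 were under 64 on both knockout arrays, among them the globin gene Hba-a1 at 19 and 18, and Alas2, the erythroid form of the synthase, was at 362 and 227. Hbb-b2, another globin gene, was at 67 on both. The part of red blood cells in the Alas1 result was not tested. The promoter of Alas1 held the short cyclic AMP response element TGACG, as did 5 of 6 heme synthesis genes with a promoter entry, 10 of 13 cyclic AMP targets (76.9%) and 23.0% of all genes in the table. The full element TGACGTCA was in 0 of these 6 and 13 and in 2.03% of all genes, and the NR5A site CAAGGTCA in 0 of 13 steroid pathway genes with an entry and 1.76% of all genes. Alas1 and the cyclic AMP target Nr4a1 are shown with TGACG or its reverse CGTCA in capitals, Alas1 over a window that ends 100 bases before its start and Nr4a1 over the 100 bases before its start.
Alas1 (chr9:106248055-106248154, minus strand): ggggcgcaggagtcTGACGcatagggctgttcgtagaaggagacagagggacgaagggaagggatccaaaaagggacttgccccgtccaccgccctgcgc
Nr4a1 (chr15:101266746-101266845, plus strand): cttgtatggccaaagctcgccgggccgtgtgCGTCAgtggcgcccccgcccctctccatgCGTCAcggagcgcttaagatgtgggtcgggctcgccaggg
Such matches describe the letters in the window only.

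Most targets of cyclic AMP stood higher in knockout after hCG. Of 17 over the floor, 11 (64.7%) were past 2-fold upward at 4 h and 1 downward, with a median of 1.34 in knockout and 1.03 in wild type. The knockout difference was the larger one in 8 of 17, a smaller share than that of all tested genes given with the sterol genes. Nr4a1, an orphan nuclear receptor, was at 346, 7241 and 7336 in knockout (21.2-fold) and at 812, 6344 and 2192 in wild type (2.70-fold). Knockout and wild type were close at 2.5 h, and only wild type had come down by 4 h. Pde4d, a cyclic AMP phosphodiesterase, was at 37, 772 and 597 in knockout (16.1-fold) by its brightest probe set, and its other probe set was near 14 on every array. Crem, a repressor induced by cyclic AMP, was at 97, 3940 and 1088 in knockout, so the net difference (11.2-fold) followed a higher peak. In wild type Crem was at 103, 3886 and 2316, the larger net difference (4.49 against 3.49 on the log2 scale). Rasd1, a Ras-like GTPase, was at 784, 3277 and 4033 in knockout (5.14-fold) and at 873, 571 and 376 in wild type (2.32-fold lower).

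The highest folds belonged to genes that were dim without hCG. Ereg, an EGF receptor ligand, went from 29 to 7360 (254-fold), Ptgfr, the prostaglandin F2-alpha receptor, from 40 to 2394 (59.9-fold), Pgr, the progesterone receptor, from 25 to 1322 (52.9-fold), Pappa, which cleaves IGF-binding proteins, from 33 to 1508 (45.7-fold) and Egln3, a prolyl hydroxylase, from 27 to 1152 (42.7-fold). Wild type went from 35 to 15438 for Ereg (441-fold) and from 25 to 7661 for Pgr (306-fold). For Ptgfr it went from 276 to 675, for Pappa from 158 to 1279 and for Egln3 from 36 to 1252. Ptgfr and Pappa thus began lower in knockout than in wild type. A fold against an intensity under 64 depends on the background, and of the 443 higher genes 65 were under 64 at 0 h. Other probe sets over the floor gave 0.92 to 4.83 for Ptgfr and 1.58 for Egln3 on the log2 scale. Among genes over 64 on both arrays, Dner, a Notch-like membrane protein, was at 65, 432 and 2079 (32-fold), Procr, the protein C receptor, at 72, 1079 and 1943 (27.0-fold), Ptger4, a prostaglandin E2 receptor, at 143, 3094 and 2998 (21.0-fold) and Bmper, a BMP-binding protein, at 224, 1614 and 3903 (17.4-fold). Dner and Procr were close to 64 at 0 h in knockout, so their folds depend on the background as well. Wild type 0 h and 4 h values were 43 and 567 for Dner and 118 and 2561 for Procr. Those of Ptger4 were 136 and 1086, and those of Bmper 902 and 6765. Zfp949, a zinc finger gene, was at 120, 371 and 2100 in knockout (17.5-fold) and at 114, 63 and 58 in wild type. Kif26b, a kinesin, was at 36, 129 and 1143 (31.8-fold), and Corin, the protease that activates natriuretic peptides, at 129, 525 and 1537 (11.9-fold). On the log2 scale, Zfp949 and Kif26b made the larger part of their difference between 2.5 h and 4 h, while Ereg and Ptger4 had made theirs by 2.5 h. Sfrp4, a secreted WNT modulator, was at 251, 2141 and 3532 in knockout (14.1-fold) and at 2784, 13712 and 21796 in wild type. Against the wild type 0 h array its knockout level at 4 h was under 2-fold higher (0.34 on the log2 scale). Slc7a8, an amino acid transporter, was 14.1-fold higher in knockout, and Rnf128, a ubiquitin ligase, 12.4-fold.

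Genes of cumulus expansion and ovulation were higher in knockout by less than in wild type. Of 12 over the floor in knockout, 10 passed 2-fold upward at 4 h and 0 downward (median 1.68). Over all tested genes the upward share was 3.89%. The wild type median for the same 12 was 3.37, and Sult1e1 is in this list too. Ptgs2, Tnfaip6, Ptx3, Cd44, Pgr and Sult1e1 were under 64 at 0 h and reached the floor only at 4 h. The floor left out Has2, Edn2, Il6 and Snap25. Their log2 differences were 0.51, -0.13, -0.10 and 0.415 in knockout and 4.13, 1.92, 2.66 and 5.94 in wild type. With no floor, 10 of 16 passed 2-fold upward in knockout (median 1.36). The knockout difference was the larger one in 3 of 12. Ptgs2, the inducible prostaglandin synthase, was at 15, 163 and 122 in knockout and 19, 8192 and 11013 in wild type. Tnfaip6, a hyaluronan-linking protein, was at 25, 217 and 281 in knockout and 18, 2172 and 2897 in wild type. By contrast Vcan, the matrix proteoglycan versican, was at 6425, 13003 and 17200 in knockout (2.68-fold) and at 5151, 11613 and 18645 in wild type (3.62-fold). Adamts1, a protease of versican, was 2.70-fold higher in knockout and 2.64-fold in wild type, and Cebpb, a transcription factor, 3.81-fold and 2.84-fold. Among readouts of ERK activity, 3 of 14 genes over the floor were at least 2-fold higher in knockout and 1 lower (median 0.16). In wild type the median of those 14 was 1.30. Over its own floor, wild type had 11 of 17 readouts at least 2-fold higher (median 1.71). Etv4, Etv5, Egr2 and Dusp4 were under the knockout floor, Dusp4 at 44 and 38 at 0 h and 4 h. Wild type had Dusp4 at 69 and 891. Egr1, an ERK-induced transcription factor, was at 273, 259 and 234 in knockout and 2152, 9767 and 5596 in wild type. With the wild type 0 h baseline, 0 of 16 readouts were higher and 4 lower.

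Luteal genes had 7 of 11 members at least 2-fold higher in knockout and 0 lower (median 1.06), with Parm1 at 3.31-fold, the cell cycle inhibitor Cdkn1a at 3.51-fold and Cited2 at 2.09-fold beside Ptgfr, Pappa and Sfrp4. With the wild type 0 h baseline the number was 4. In wild type, 10 of 12 luteal genes over its floor were at least 2-fold higher. The wild type median of the 11 genes tested in knockout was 1.29, and the knockout difference was the larger one in 5 of them. Of 25 genes of the preovulatory granulosa cell, 1 was higher (Kitl, the KIT ligand, 2.71-fold) and 1 lower (Esr2, estrogen receptor beta, 2.21-fold) in knockout, and the median was 0.05, against -0.97 in wild type. Inhbb, the inhibin beta B subunit, was at 20115, 23283 and 22865 in knockout and 21559, 13813 and 2518 in wild type. Fshr, the FSH receptor, was at 5345, 4468 and 3603 in knockout and 4454, 2233 and 708 in wild type. The knockout difference was above that of wild type in 24 of 25 of these genes. It was also above that of wild type in most of all tested genes, by the share given with the sterol genes.

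**Figure D3:**
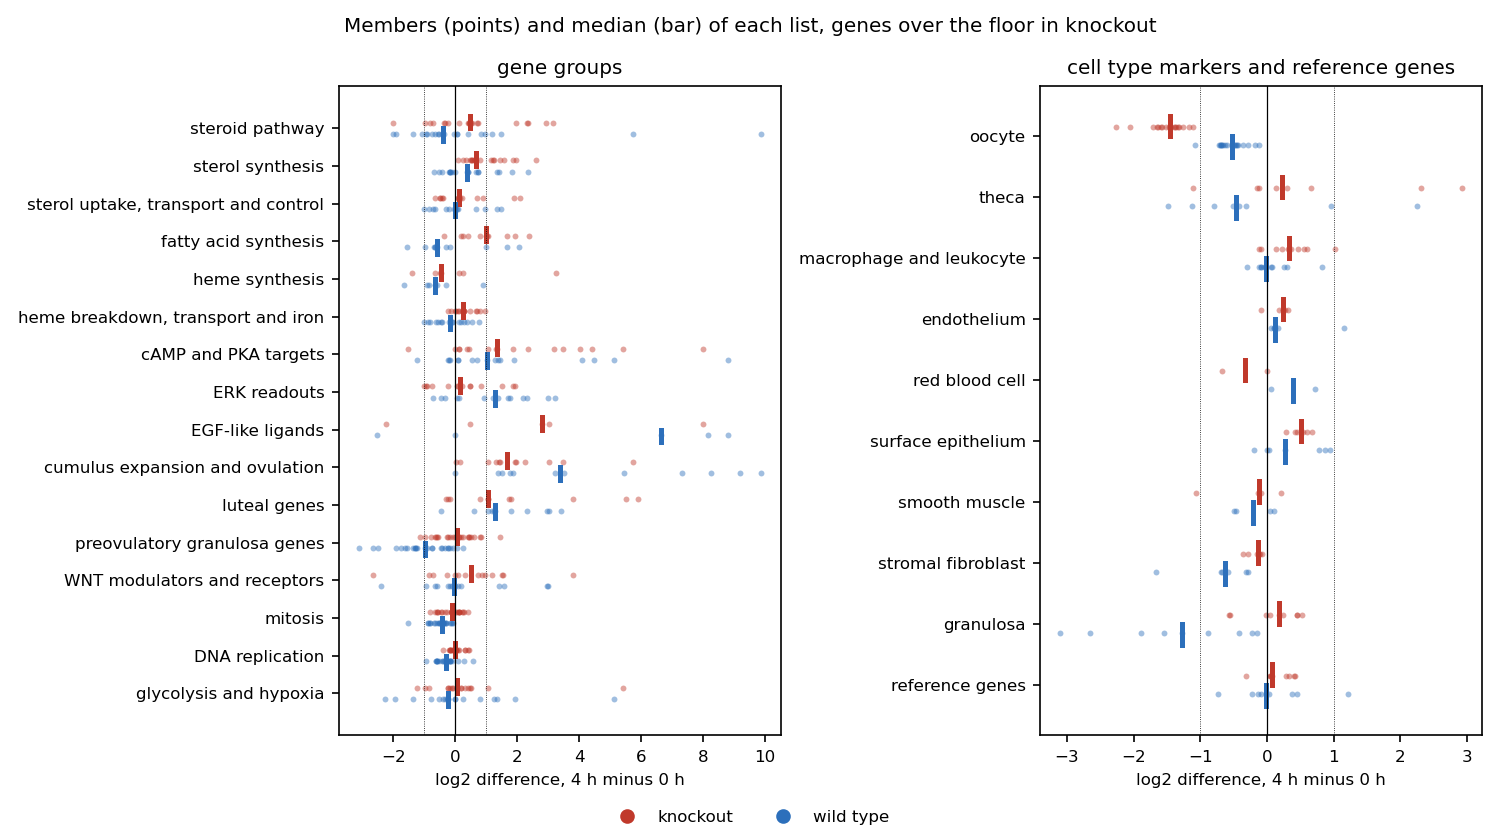
Log2 difference, 4 h minus 0 h, of the members of each list over the floor in knockout (points) with the list's median (bar), for knockout (red) and wild type (blue); dotted lines mark 2-fold. The sterol synthesis members all lie right of 0 in knockout, the oocyte markers all lie left of -1, and the preovulatory granulosa genes centre on 0 in knockout and near -1 in wild type.

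On the lower side the changes were smaller than on the higher side: 95 genes passed 4-fold upward at 4 h and 21 downward. The largest was the uncharacterised gene 1110032F04Rik, at 3606 and 314 in knockout at 0 h and 2.5 h and 14.1-fold below its start at 4 h. In wild type it was at 5672, 1609 and 420 (13.5-fold lower). The drop was nearly complete by 2.5 h in knockout. Clec1a, a C-type lectin receptor, was at 470, 148 and 53 in knockout (8.87-fold lower) and at 492, 242 and 51 in wild type. Myf5, a transcription factor known from muscle, was at 342, 41 and 40 (8.55-fold lower), and Gpr155, an orphan receptor-like protein, at 781, 118 and 93 (8.40-fold lower). Frzb, a secreted WNT antagonist, was at 478, 286 and 76 in knockout (6.29-fold lower) and 602, 304 and 114 in wild type (5.28-fold lower). Adhfe1, a mitochondrial dehydrogenase, was at 443, 228 and 75 (5.91-fold lower). On the log2 scale, both Frzb and Adhfe1 made their larger step after 2.5 h. Rgs13, a regulator of G protein signalling, was 5.66-fold lower, Tnc, the matrix protein tenascin C, 4.97-fold, Ntng1, netrin G1, 4.73-fold, Hbegf, an EGF receptor ligand, 4.69-fold and Krt20, a keratin, 4.5-fold. By these probe sets the genes just named were lower in wild type too, from 2.75-fold (Ntng1) to 17.3-fold (Gpr155). A second probe set of Tnc went the other way, at 34, 38 and 53 in knockout, below 64, and at 63, 95 and 235 in wild type.

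Transcripts of the oocyte stood lower as well. All of 19 oocyte markers over the floor were past 2-fold on the lower side in knockout at 4 h (median -1.45), against 1 of 19 in wild type (median -0.53). The summed intensity of the 21 markers with a probe set was 53358, 22517 and 19542 on the knockout arrays and 29029, 17787 and 19140 on the wild type arrays. The knockout 0 h array was thus the high one, and the genotypes were level at 4 h. Gdf9, the growth differentiation factor of oocytes, was at 6752, 2655 and 2463 in knockout and 3500, 2053 and 2145 in wild type. Zp3, a zona pellucida protein, was at 4551, 1885 and 1589 in knockout and 2417, 1413 and 1506 in wild type. Rfpl4 (4.81-fold lower), Pramel25 (4.73-fold), Gm15666 (5.03-fold) and E330016L19Rik (4.26-fold) had the same shape, highest on the knockout 0 h array. Gm15666 was at 317, 107 and 63 in knockout and between 69 and 75 on all wild type arrays. With the wild type 0 h array as the baseline, 326 genes passed 2-fold on the lower side in knockout at 4 h, 178 of them among the 552, as did 1 of 19 oocyte markers. The part of oocyte RNA in the counts was not tested.

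A further set was lower in knockout and higher in wild type. Gem, a GTPase induced by growth factors and cyclic AMP, was at 485, 216 and 171 in knockout (2.84-fold lower) and 498, 1218 and 1014 in wild type (2.04-fold higher). Serpinb1a, a protease inhibitor, was at 1863, 981 and 870 in knockout (2.14-fold lower) and 1885, 1770 and 4309 in wild type (2.29-fold higher). For both, the genotypes were at nearly the same level at 0 h and apart at 4 h. Jag1, a Notch ligand, was at 643, 261 and 276 in knockout (2.33-fold lower) and 364, 491 and 916 in wild type (2.52-fold higher). Bmp2, a bone morphogenetic protein, was at 738, 253 and 368 in knockout and 1200, 2320 and 1892 in wild type. Tpd52l1 was at 730, 425 and 257 in knockout (2.84-fold lower) and 749, 563 and 1061 in wild type. H3f3b, a histone gene, was at 397, 315 and 185 in knockout and 118, 221 and 301 in wild type. Its knockout level at 4 h was above the wild type level at 0 h. The 2-fold mark was passed in both genotypes, downward in knockout and upward in wild type, by 4 genes (0.725% of the knockout list of 552 and 0.633% of the wild type list of 632).

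**Figure D4:**
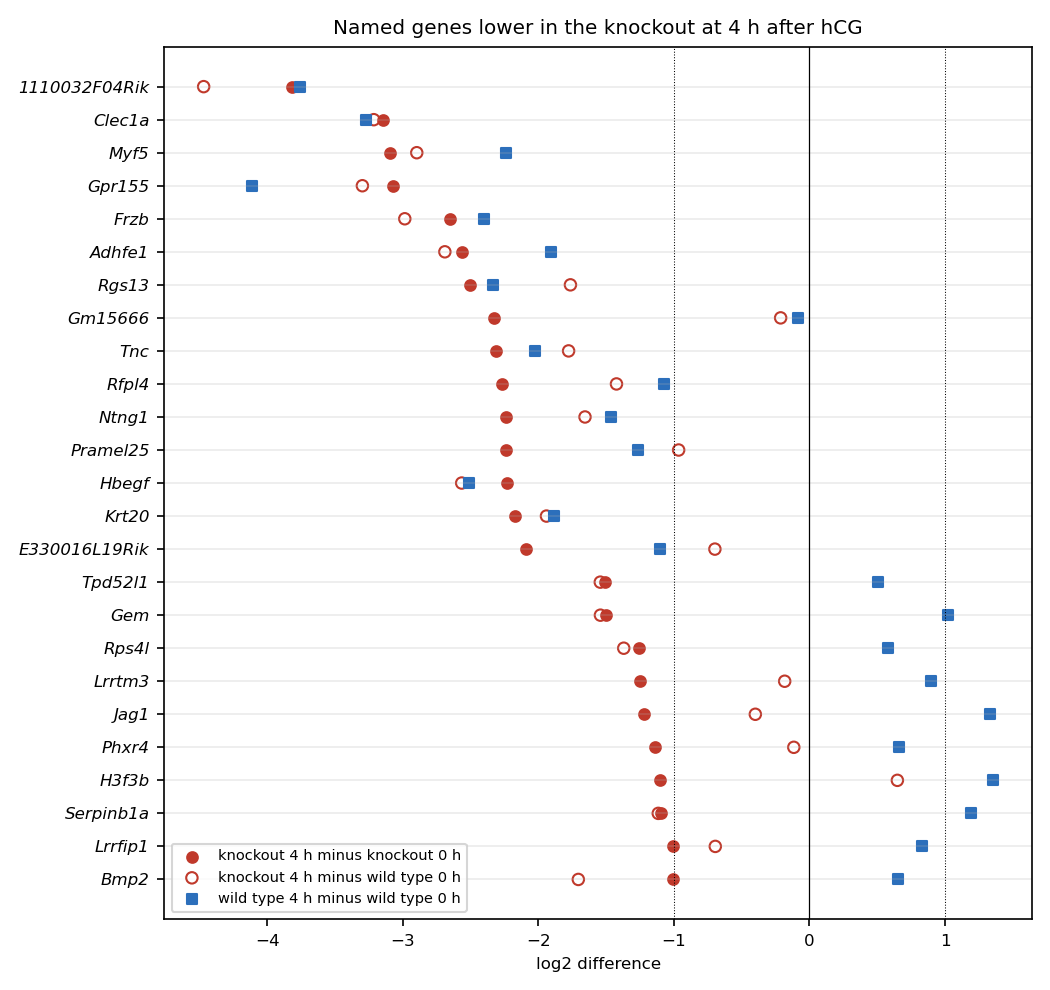
Log2 difference of the 25 named genes that were lower in knockout at 4 h: knockout 4 h against knockout 0 h (filled red), knockout 4 h against wild type 0 h (open red) and wild type 4 h against wild type 0 h (blue squares), 1 array per group; dotted lines mark 2-fold. The upper genes, such as Clec1a, sit left of -1 on all 3 measures, Gm15666 only on the first, and Gem and Serpinb1a sit right of 1 in wild type.

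The opposite set, higher in knockout and lower in wild type by at least 2-fold, had 9 genes (2.03% of the 443 and 0.861% of the 1045). Coasy, the coenzyme A synthase, was at 1334, 1743 and 3520 in knockout (2.64-fold higher) and 1281, 928 and 326 in wild type (3.93-fold lower), and its other probe set gave 360 and 1047 in knockout at 0 h and 4 h. St3gal5, the synthase of the ganglioside GM3, was at 3040, 7116 and 7004 in knockout and 3317, 3047 and 1254 in wild type. Cbfa2t3, a transcriptional corepressor, was at 408, 1021 and 1023 in knockout and 465, 357 and 127 in wild type. Ksr1, a scaffold of the RAF, MEK and ERK cascade, was at 275, 428 and 634 in knockout (2.31-fold higher) and 310, 223 and 118 in wild type (2.63-fold lower). Its other 2 probe sets gave 0.27 and 0.33 on the log2 scale in knockout. Elovl6 and Rasd1, given above, belong to the same set. In all, 226 genes were at least 2-fold higher in both genotypes (51.0% of the knockout list and 35.8% of the wild type list) and 212 lower in both (38.4% and 20.3%). These 2 comparisons share no array, and with 1 array a group the difference between genotypes has no test.

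**Figure D5:**
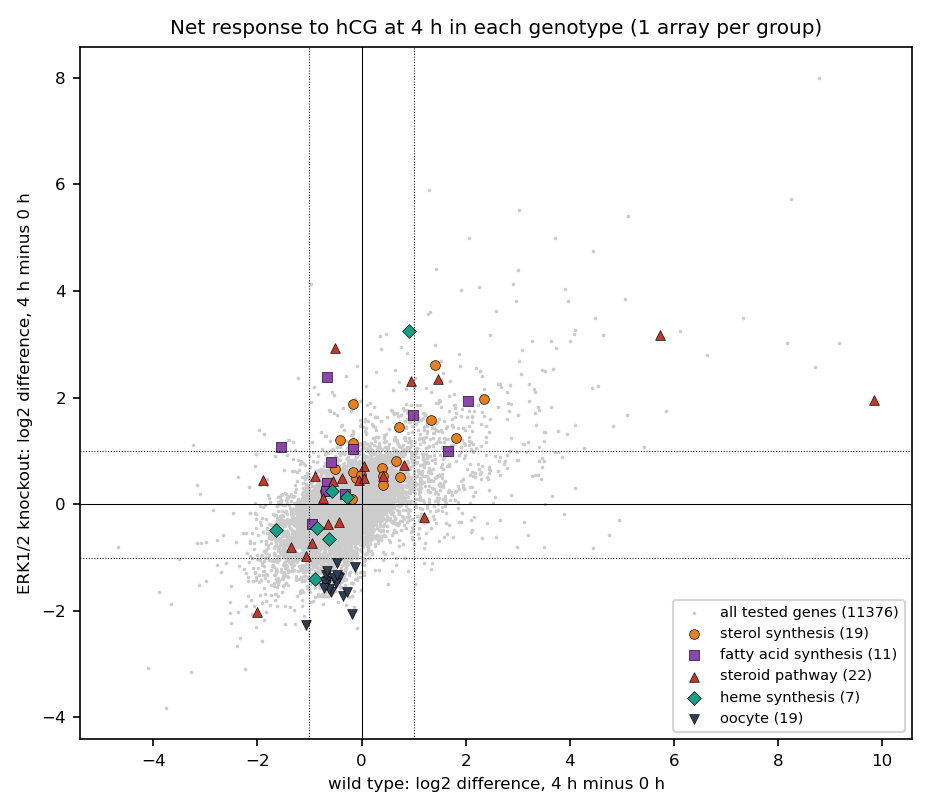
Log2 difference, 4 h minus 0 h, in wild type (horizontal) and knockout (vertical) for the 11376 genes tested in knockout (grey), with 5 lists in colour; dotted lines mark 2-fold and each group has 1 array. The sterol synthesis genes lie above 0 in knockout, the oocyte markers lie below -1 in knockout and mostly between -1 and 0 in wild type, and Alas1 is the heme synthesis gene above 3.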

How the data were processed

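RNA of ovarian granulosa cells was measured on Affymetrix arrays, 1 for each of 2 genotypes at 3 times. Each probe set has 1 deposited intensity per array, which the authors made by RMA with the affy package, per the submitters' processing notes (no version is named there). Intensities are whole numbers on a linear scale (9 to 59425), and RMA makes the spread of all arrays alike, so a change in total RNA cannot be seen. Log2 was taken with no offset. Of 45101 probe sets, 34958 named 1 gene in the platform annotation, 932 several and 9211 none; the brightest probe set over the 6 arrays stood for each of 18194 genes. The rule of size was tested on simulated data. Named genes were all steroid, sterol and heme list members, the 12 largest differences each way, the 10 largest increases and 12 largest decreases among genes over 64 on both arrays with the brighter at 4 times that level or more, the 10 most opposite to wild type each way, and up to 4 members of each other list, with further members named after their values were seen. Members, lists and rules were chosen with earlier results of these data known. Of 9 alternatives, cyclic loess used limma 3.58.1 in R 4.3.3. An alternative was taken to move a log2 difference when it shifted it by more than 1.5-fold. Promoters came from RefSeq (GRCm38.p6).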

Additional observations from a re-analysis of the deposited data

Results flagged for a closer look

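For 13 genes the 4 h array lay at least 2-fold on opposite sides of the 0 h array in the genotypes. With 1 array per group this difference was not tested. On the log2 scale, knockout first and wild type second, 9 were higher in knockout: Rasd1 (2.36 and -1.22), Coasy (1.40 and -1.97), Cbfa2t3 (1.33 and -1.87), Ksr1 (1.21 and -1.39), St3gal5 (1.2 and -1.40), Mfap3l (1.17 and -1.31), Tulp2 (1.11 and -3.24), Elovl6 (1.07 and -1.55) and the heat shock gene Hspa1a (1.02 and -1.29). The 4 that were lower in knockout were Gem (-1.50 and 1.03), Jag1 (-1.22 and 1.33), H3f3b (-1.10 and 1.35) and Serpinb1a (-1.10 and 1.19). Of these, Tulp2 was at 24 on the wild type 4 h array, under the intensity of 64.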

How the results depend on the processing

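No paired analysis was possible because each group had 1 array. The count of higher genes moved from 443 to 194 with the second brightest probe set, which only genes with several have (287 of the 443, 134 of them at least 2-fold higher again). The count of lower genes moved from 552 to 191 in that setting, to 367 when all probe sets were averaged and to 326 with the wild type 0 h array as baseline. Genes higher in both genotypes numbered 104 with the second probe set, and genes lower in both 75 with it, 126 when all were averaged and 131 with the mean of the 2.5 h and 4 h arrays. The heme synthesis median was 0.17 with the second probe set. The steroid and sterol medians moved by less than 1.5-fold and kept their sign in all 9 settings. The steroid median of 0.47 is itself smaller than a 1.5-fold shift, so this limit could not show its loss. With the wild type 0 h baseline it was 0.14, and called sterol genes went from 8 to 1. Of 194 named genes, Fdps changed sign with the second probe set (-0.13, at an intensity near 12) and with the wild type 0 h baseline (-0.10), Tnc with the second probe set (0.64, under 64), and H3f3b (0.65), Tulp2 (-0.065) and Hspa1a (-0.19) with the wild type 0 h baseline. The other differences of named genes under these settings kept their sign or were uncalled, and 137 of 1666 moved by more than 1.5-fold, 51 of them with that baseline. The cause was not tested. Signal close to background limits the 65 higher genes under 64 at 0 h and the 66 lower genes under 64 at 4 h.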

Other observations

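Cell cycle genes stayed near their 0 h level in knockout. Of 24 mitosis genes, 0 were at least 2-fold different (median -0.09), with Bub1b, a spindle checkpoint kinase, at 3881 and 2223 and Ube2c, a ubiquitin-conjugating enzyme, at 1006 and 1347; the wild type median was -0.42, with 24 of 24 below 0 h. Of 22 DNA replication genes, 0 were at least 2-fold different (median -0.003 in knockout and -0.29 in wild type). Among 18 glycolysis and hypoxia genes, Egln3 and Vegfa (2.09-fold) were higher and Bnip3, a mitophagy receptor, was 2.34-fold lower. Of 14 WNT receptors and modulators, Sfrp4, Wnt4 (2.90-fold), Fzd7 (2.85-fold) and Fzd4 (2.26-fold) were higher and Frzb lower; against the wild type 0 h array 1 of 14 was higher and 1 lower. Fzd4 was at 394, 1140 and 890 in knockout and at 451, 422 and 233 in wild type.

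Markers of other cell types were mostly under 2-fold apart. Of 11 macrophage and leukocyte markers over the floor, 1 was at least 2-fold higher (Csf1r, at 222 and 451; list median 0.33), and 0 of 6 endothelial and 0 of 7 surface epithelium markers were (medians 0.24 and 0.51). Against the wild type 0 h array, 4 of the 7 surface epithelium markers were at least 2-fold higher. The summed intensity of the surface epithelium list was 2966 and 4018 in knockout and 2725 and 3067 in wild type. Of 9 reference genes, 0 differed at least 2-fold (median 0.08).

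Of 2967 probe sets over the floor without a single gene name, 329 were on the lower side past 2-fold in knockout at 4 h, against 141 of 2781 in wild type. The knockout share was above the 4.85% of named genes, and the wild type share was below their 9.04%. In knockout fewer of these probe sets passed 2-fold upward than downward, while in wild type 177 passed it upward. The part of the knockout 0 h array in this count was not tested.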
